A study of Astyanax mexicanus with 6 samples.

Results

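The genes described here share an order over the replicate libraries of 2 *Astyanax mexicanus* fibroblast lines. They are named genes with a mean of at least 5 TPM (transcripts-per-million, an abundance scaled to gene length and to the same total in every library) in each line. Their TPM was highest in library 1, intermediate in library 2 and lowest in library 3 of both lines, and library 1 was at least 1.4 times library 3 in both. Names starting with col were left out. The rule found 74 of the 27420 listed genes, of which 18877 had a name and 7329 met the minimum. The members were thus chosen by the TPM values of all 6 libraries, and everything said of the order and of its size is a description without a test.

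PEF is an embryonic fibroblast line of the Pachón cavefish and SEF is the corresponding line of surface fish, both labelled as wild type. Each line was propagated from an isolated clone of dissociated early embryos, and the sequenced cells were kept at 28°C with no treatment named in the labels. Poly(A) RNA was sequenced as 3 libraries of PEF and 3 of SEF, taken at similar passage numbers. The libraries are numbered 1 to 3, and no label says what the number stands for. Since each line stands for a single clone, p-values measure only the spread between its libraries, which may be technical.

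Fibroblasts build and remodel the extracellular matrix, the fibrous network of collagens, proteoglycans and glycoproteins around cells. They secrete matrix subunits, cross-link them with dedicated enzymes and cut them with surface proteases, and matricellular proteins such as the CCN family and Sparc tune how cells respond to that network. Many of these genes respond to growth factors, stretch and cell density, and immediate early genes switch on within a short time of such a stimulus.

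Reads on genes numbered 36790663 to 42506026 in PEF and 33381563 to 39156850 in SEF, and library 1 had the fewest in either line. Library 1 of PEF stood apart. Between 9.38% and 11.7% of 16670 genes differed by more than 2-fold between it and the other PEF libraries, against 2.36% between PEF libraries 2 and 3 and 3.03% to 8.10% between SEF libraries. In PEF library 1, 41 of 50 cell cycle genes were at least 1.4-fold below PEF library 3, and the same held for 1 of 50 in SEF. The mean log2(TPM + 1) of that list was 3.56, 4.25 and 4.77 in PEF libraries 1, 2 and 3, and 5.12, 5.13 and 4.92 in those of SEF. *cdk1*, the kinase that drives entry into mitosis, had 11.8, 28.8 and 47.7 TPM in PEF against 50.9, 51.2 and 44.7 TPM in SEF. The part of these differences in the order of the members was not tested. In bulk RNA, fewer cells expressing a gene and less RNA per cell cannot be told apart. Of the fibroblast markers, *col1a2* was at 3490 to 5314 TPM in PEF and 3783 to 5855 TPM in SEF, and *pdgfra* at 14.6 to 25.2 TPM in PEF and 7.75 to 10.7 TPM in SEF, whereas *vim* stayed at 0.88 to 1.62 TPM in PEF and 2.79 to 4.14 TPM in SEF. The epithelial keratin *krt8* reached 3431 to 3847 TPM in PEF and 992 to 1420 TPM in SEF. Only 3 of 7 listed epithelial marker entries reached 1 TPM in any library, the keratins *krt4*, *krt8* and *krt18a.1*. A second *krt8* entry and *krt5* stayed at or below 0.1 TPM in every library. The summed fibroblast markers were 15334, 10637 and 8980 TPM in PEF and 12244, 9156 and 8715 TPM in SEF. They include 3 members and the abundant collagen genes *col1a1a*, *col1a1b* and *col1a2*. These collagens had the same order and ratio and were left out by name only, so the fall of the sums is not independent of the rule. The marker *fn1a* had the opposite order in SEF, with 676, 823 and 1581 TPM. Over SEF libraries 1, 2 and 3, muscle markers summed to 156, 237 and 317 TPM and endothelial markers to 98.8, 114 and 141 TPM, whereas skeletal markers summed to 238, 189 and 152 TPM and neural markers to 25.1, 22.2 and 8.05 TPM. In PEF these 4 sums were at most 44.5 TPM, and blood markers stayed under 1 TPM in either line. The part of these cell type markers in the order was not tested.

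The members made up 1.01% of the 7329 genes. Within a single line the same order and ratio held for 582 genes in PEF (7.94%) and 543 genes in SEF (7.41%), so the shared genes were 12.7% of the PEF genes and 13.6% of the SEF genes. The opposite order, lowest in library 1 and highest in library 3 of both lines by the same ratio, held for 35 genes. TPM of the members together came to 24942, 13437 and 11823 in PEF libraries 1, 2 and 3, which is 2.49%, 1.34% and 1.18% of all TPM. In SEF the sums were 13218, 10014 and 7827, or 1.32%, 1.001% and 0.783%. *sparc* alone gave much of the PEF sum, and without it the PEF libraries held 13362, 6858 and 5676 TPM and those of SEF 12378, 9278 and 7233 TPM.

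The ratio of library 1 to library 3 ran from 1.42 to 8.14 in PEF, with a median of 1.76, and from 1.404 to 4.16 in SEF, with a median of 1.69. It was larger in PEF for 39 members and larger in SEF for 35. Only 10 members reached a ratio of 2 in both lines. The place of library 2 also differed. In PEF the gap between libraries 1 and 2 was the larger one for 67 of 74 members, with a median ratio of 1.52 between libraries 1 and 2 and 1.17 between libraries 2 and 3. In SEF the gap between libraries 2 and 3 was the larger one for 45 of 74, with median ratios of 1.25 and 1.31. Library 2 was less than 1.1 times library 3 for 20 members in PEF and 7 in SEF. Library 1 was less than 1.1 times library 2 for 2 members in PEF and 10 in SEF. In such members the order of these 2 libraries rests on a small difference. In the plot of members relative to library 3, the median of PEF library 2 therefore lies close to library 3. The median of SEF library 2 lies about midway, but single members differ. In SEF library 1 was at least 1.4 times library 2 for 23 members, and library 2 at least 1.4 times library 3 for 31.

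**Figure D1:**
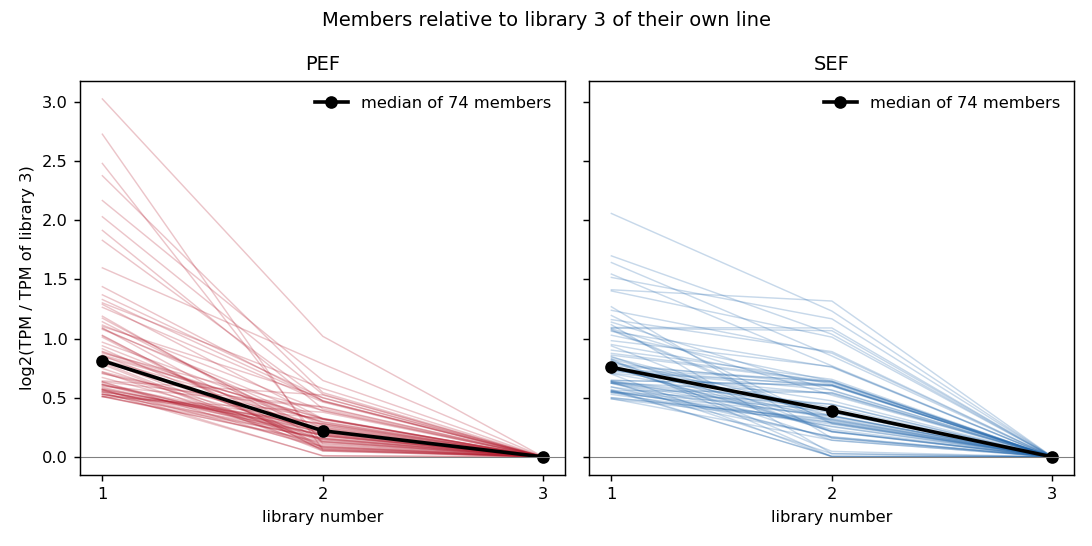
Each thin line is one of the 74 members and gives log2 of its TPM over that of library 3 of its own line (y axis) in libraries 1, 2 and 3 (x axis), with PEF on the left and SEF on the right; black points are medians. Most PEF lines drop steeply between libraries 1 and 2 (median ratio 1.52) and little after it (1.17). The SEF steps are of similar size in the median (1.25 and 1.31), but not in each member.

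A wide gap between the same pair of libraries in both lines was uncommon. Library 1 was at least 1.4 times library 2 in both lines for 14 members, among them *ccn1*, *ccn2b*, *FBN1*, *prelp*, *cthrc1a*, *HTRA3*, *mmp14a*, *prrx1b* and *boc*. Library 2 was at least 1.4 times library 3 in both lines for *JAG1* and *krt4* alone. With the libraries numbered 1 set aside, 13 genes had library 2 at 1.4 times library 3 in both lines, 2 of them members. With library 3 set aside, 35 genes had library 1 at 1.4 times library 2, 14 of them members. Without library 2, 111 genes met the ratio, all 74 members included.

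**Figure D2:**
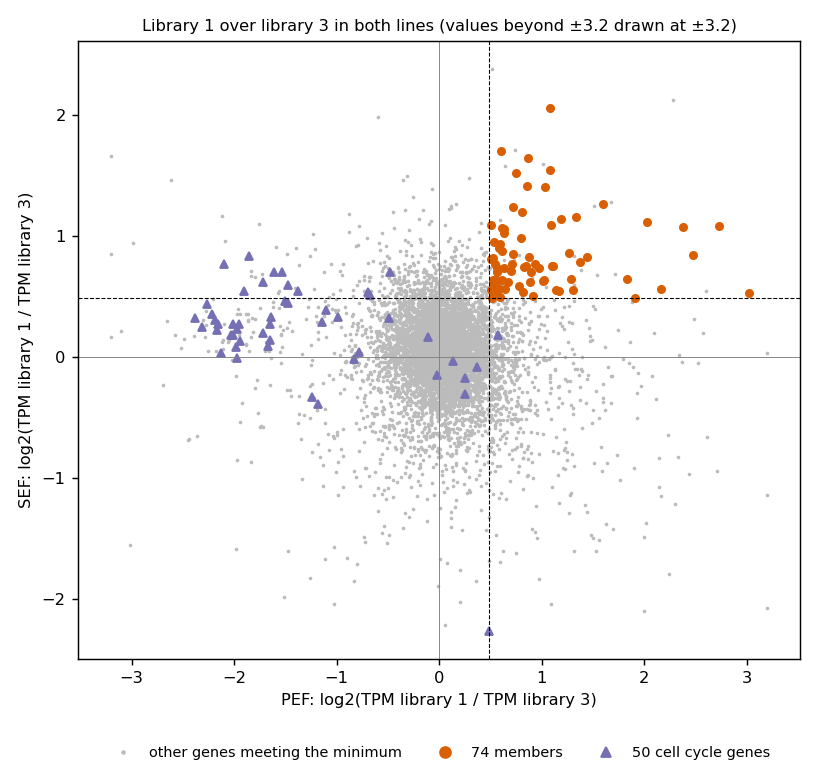
Each point is a gene, placed by log2 of its TPM in library 1 over library 3 in PEF (x axis) and in SEF (y axis); grey points are genes meeting the minimum, orange points the 74 members, purple triangles 50 cell cycle genes, and dashed lines the ratio of 1.4. The members fill the upper right corner by construction, and 41 of the cell cycle genes lie at least 1.4-fold to the left in PEF.

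By roles assigned after the values were seen, 10 members code for structural or matricellular proteins, 4 for enzymes and chaperones that process the matrix, 7 for secreted signals or their antagonists, 14 for surface receptors, ligands and adhesion proteins, 9 for transcription regulators and 6 for transporters or channel regulators. The other 24 are intracellular proteins or have no role assigned.

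The matricellular proteins gave the most abundant member and some of the widest ranges. *sparc*, which codes for a collagen-binding glycoprotein, had 11580, 6579 and 6146 TPM in PEF libraries 1, 2 and 3 against 840, 736 and 594 TPM in SEF. All PEF libraries lay far above all SEF libraries. *ccn1*, a CCN protein induced by growth factors and by Yap signaling, had 2507, 394 and 379 TPM in PEF against 75.9, 51.4 and 35.8 TPM in SEF. Here PEF library 1 stood alone, 6.36 times library 2, and PEF libraries 2 and 3 nearly coincided. *ccn2b*, a copy of connective tissue growth factor, was in the reverse relation between the lines, with 44.8, 15.8 and 10.98 TPM in PEF against 483, 227 and 223 TPM in SEF. Its libraries 2 and 3 were nearly equal in SEF, and read counts scaled by TMM did not keep their order.

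The other CCN2 copy, *ccn2a*, was no member, although it was the more abundant one in every library. Its TPM was 2421, 1053 and 897 in PEF, but 651, 460 and 846 in SEF, where library 3 was highest. Library 1 of PEF was thus high for all CCN genes shown here, and the SEF order held for *ccn1* and *ccn2b* only.

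Small leucine-rich proteoglycans bind collagen fibrils and limit their width, and 3 of them were members. *dcn* (decorin) had 646, 459 and 406 TPM in PEF and 515, 373 and 334 TPM in SEF, so the lines overlapped and had similar ratios of 1.59 and 1.54. *prelp*, which anchors the fibrillar matrix to basement membranes, had 294, 174 and 139 TPM in PEF and 124, 72.6 and 42.6 TPM in SEF. Its libraries were well separated in both lines. *aspn* (asporin) had 205, 133 and 122 TPM in PEF and 314, 247 and 110 TPM in SEF, where library 3 lay below all PEF libraries. Another member of this family, *ogna*, was more abundant than these, with 1724, 964 and 938 TPM in PEF, but was nearly level over the SEF libraries, with 823, 789 and 765 TPM.

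Fibrillin and other fibre-associated genes shared the order at lower levels. *FBN1*, coding for the main microfibril subunit, had 12.01, 6.81 and 5.66 TPM in PEF and 9.53, 5.38 and 2.29 TPM in SEF, and its SEF ratio of 4.16 was the highest of any member. *cthrc1a*, a secreted collagen triple helix repeat protein, had 80.0, 52.2 and 45.7 TPM in PEF and 114, 60.8 and 49.9 TPM in SEF. In *cthrc1a* library 1 stood off in both lines, and in *FBN1* the SEF libraries were evenly spread. *aebp1*, a collagen-binding protein, ranged over 116 to 165 TPM in PEF and 93.1 to 163 TPM in SEF, and *srpx* over 10.5 to 14.9 TPM in PEF and 5.96 to 8.73 TPM in SEF. Neither fibronectin copy was a member. *fn1a* had 613, 368 and 319 TPM in PEF but 676, 823 and 1581 TPM in SEF, the opposite order. *fn1b* rose in PEF, with 50.2, 60.6 and 69.6 TPM, and was highest in library 1 of SEF, with 264, 141 and 171 TPM.

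Enzymes and chaperones that process the matrix gave 4 members. *serpinh1b*, one of the copies of the collagen chaperone Hsp47, had the largest PEF ratio of the set, 8.14, with 97.4, 24.2 and 11.96 TPM in PEF and 38.8, 32.6 and 26.9 TPM in SEF. Its SEF range lay inside its PEF range. The more abundant copy, *serpinh1a*, had 2163, 2089 and 1550 TPM in PEF and 384, 336 and 330 TPM in SEF, and missed the ratio in both lines. *mmp14a*, a membrane-anchored collagenase, had 540, 376 and 299.9 TPM in PEF and 601, 417 and 356 TPM in SEF, almost the same picture in each line. Its copy *mmp14b* was also highest in library 1 (200 TPM in PEF and 130 TPM in SEF) but had library 3 slightly above library 2 in both lines.

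*HTRA3*, a secreted serine protease of the HtrA family, had 131, 78.4 and 68.2 TPM in PEF against 2936, 1897 and 1721 TPM in SEF, where it was the most abundant member. *HS3ST1*, a heparan sulfate sulfotransferase, had 31.5, 6.08 and 5.64 TPM in PEF and 11.2, 8.13 and 6.26 TPM in SEF. As in *ccn1* and *serpinh1b*, PEF library 1 alone was far above the rest.

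**Figure D3:**
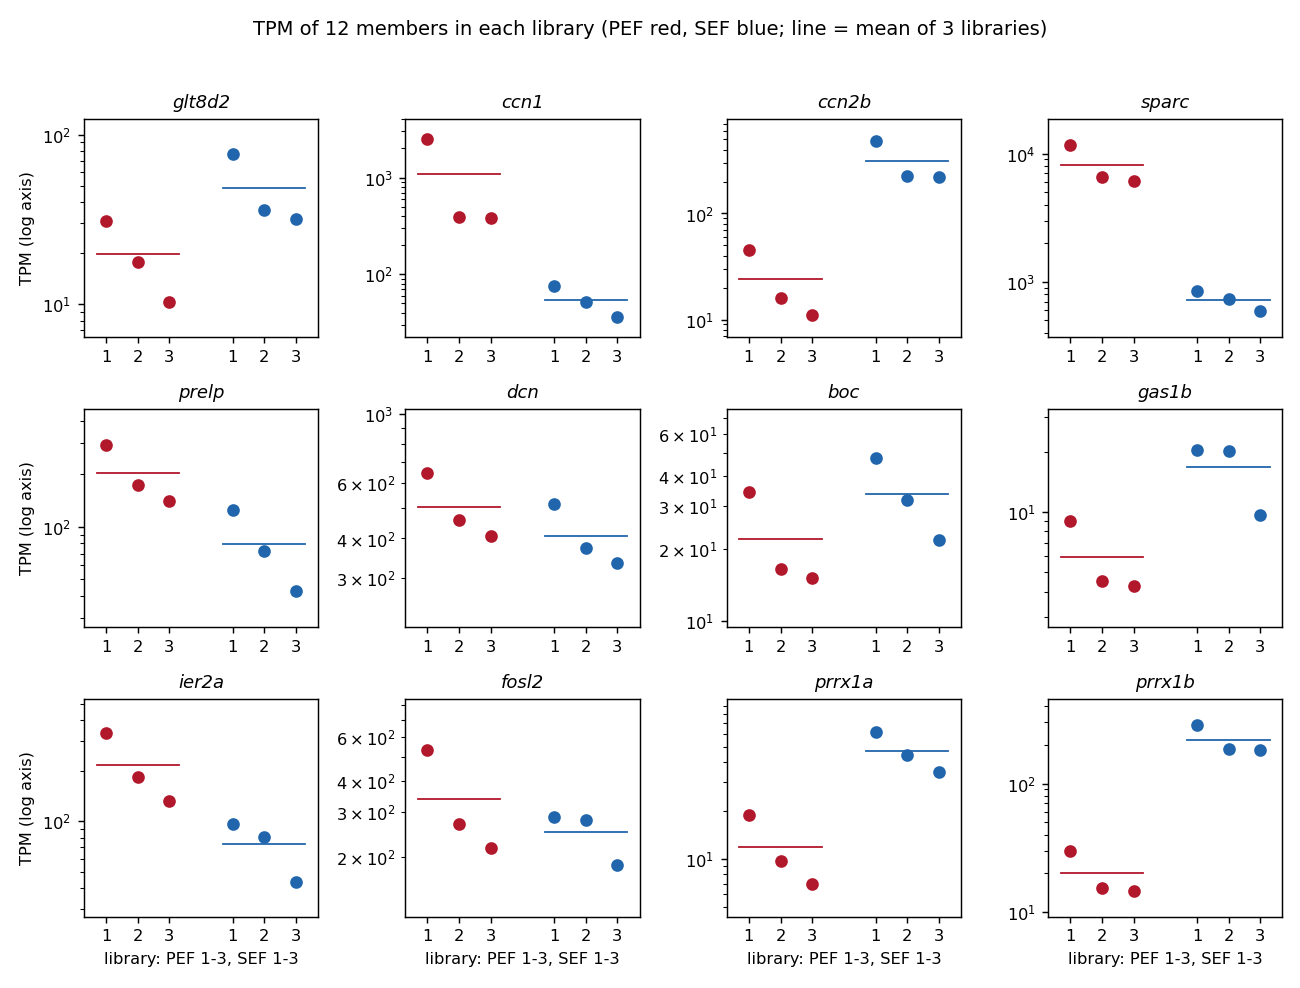
TPM (log axis) of 12 members in PEF libraries 1 to 3 (red, left) and SEF libraries 1 to 3 (blue, right); lines are means of 3 libraries. The order over the library numbers is common to all panels by construction, while the level of PEF lies above SEF in *ccn1* and *sparc* and below it in *ccn2b* and *prrx1b*.

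Secreted signals were represented by 7 members. *angptl2a*, an angiopoietin-like protein, was the most abundant, with 650, 503 and 435 TPM in PEF and 695, 585 and 372 TPM in SEF. *ccl25b*, a chemokine, had 34.6, 13.5 and 9.74 TPM in PEF against 125, 121 and 79.6 TPM in SEF. In PEF library 1 of *ccl25b* was apart, and in SEF library 3 was. *tnfsf10*, coding for the death receptor ligand TRAIL, had 10.9, 3.06 and 2.1 TPM in PEF and 8.92, 5.21 and 4.23 TPM in SEF and rested on as few as 84 reads in a library. *twsg1a*, a modulator of BMP signaling, ranged over 80.6 to 121 TPM in PEF and 52.2 to 99.97 TPM in SEF. *serpinf1* (pigment epithelium-derived factor), *sema3e* (a repelling guidance cue) and *lrrc17* had PEF ratios of 1.46 to 2.15 and SEF ratios of 1.56 to 1.69.

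Among the surface proteins were Boc and Gas1, co-receptors that help cells bind Hedgehog ligands. *boc* had 34.4, 16.5 and 15.1 TPM in PEF and 47.7, 32.0 and 21.7 TPM in SEF. *gas1b* had 9.07, 4.50 and 4.26 TPM in PEF against 20.5, 20.2 and 9.63 TPM in SEF. Library 1 was thus the high one in PEF, whereas in SEF library 3 was the low one for *gas1b*. *cdon*, the third co-receptor of this kind, did not share the order, with 420, 497 and 441 TPM in PEF and 12.9, 11.03 and 16.5 TPM in SEF. *APCDD1*, a Wnt antagonist of the cell surface, had 26.4, 13.4 and 13.0 TPM in PEF and 39.7, 30.3 and 15.02 TPM in SEF.

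*mxra8b*, a matrix remodeling-associated membrane protein, was the most abundant of the surface group, with 1596, 1054 and 860 TPM in PEF against 535, 330 and 329 TPM in SEF. Library 3 of SEF lay above library 2 in the read counts scaled by TMM, as it did for *prrx1b*, *eif4a2*, *cd302* and *PLN*. The copy *mxra8a* was also a member but stood the other way between the lines, with 49.0, 35.7 and 29.7 TPM in PEF against 140, 90.3 and 78.0 TPM in SEF. *JAG1*, a Notch ligand, had 32.3, 17.7 and 12.5 TPM in PEF against 6.87, 6.06 and 3.98 TPM in SEF. *BDKRB2*, a bradykinin receptor, had 42.8, 24.6 and 17.8 TPM in PEF against 13.2, 11.2 and 7.25 TPM in SEF. Both genes lay higher in every PEF library than in any SEF library. *ephb4b*, an ephrin receptor, ranged over 20.7 to 35.6 TPM in PEF and 30.3 to 45.6 TPM in SEF, whereas its copy *ephb4a* was lowest in PEF library 1 at 8.69 TPM. The other surface members (*tnfrsf11a*, *gpm6bb*, *cd302*, *entpd1*, *mrc1b* and *cdh7a*) had ratios of 1.45 to 2.16 in PEF and 1.48 to 2.098 in SEF.

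Of the transcription regulators, 2 are the paired-related homeobox genes that mark limb and fin mesenchyme. *prrx1a* had 18.9, 9.67 and 6.97 TPM in PEF against 62.0, 44.4 and 34.9 TPM in SEF. *prrx1b* had 29.97, 15.5 and 14.8 TPM in PEF against 283, 186 and 182 TPM in SEF. No PEF library of either gene reached the SEF range. *rarga*, a retinoic acid receptor, had 41.4, 29.5 and 25.4 TPM in PEF against 19.4, 14.1 and 11.4 TPM in SEF. The corepressor gene *cbfa2t2*, the Ahr repressor gene *ahrrb* and *elmsan1a* ranged over 11.4 to 71.3 TPM in PEF and 6.18 to 30.85 TPM in SEF.

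Immediate early and antiproliferative genes gave 3 members. *ier2a* had 332, 184 and 132 TPM in PEF against 96.9, 80.3 and 43.3 TPM in SEF. *fosl2*, an AP-1 subunit, had 529, 271 and 217 TPM in PEF and 289, 280 and 184 TPM in SEF. *btg2*, a p53-responsive antiproliferative gene, had 222, 135 and 123 TPM in PEF and 112, 104.5 and 41.9 TPM in SEF. In all 3 genes PEF library 1 and SEF library 3 were the ones that stood off. Other AP-1 genes varied: *fosl1a* had 388, 70.29 and 63.4 TPM in PEF and 3.80, 8.72 and 6.01 TPM in SEF, and *junbb* had 1709, 414 and 363 TPM in PEF and 150, 151 and 233 TPM in SEF. *junba* was lowest in PEF library 1, with 1.5, 4.37 and 3.24 TPM in PEF, and had the order of the members in SEF, with 616, 568 and 216 TPM. *fosab* and *egr1* met the ratio in both lines but were highest in SEF library 2, at 102 and 65.2 TPM.

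Transporters and channel regulators gave 6 members, of which *abcc6b.2* (an ABC transporter) and *PLN* (phospholamban, an inhibitor of the calcium pump of the endoplasmic reticulum) differed most between the lines. *abcc6b.2* had 14.2, 9.82 and 9.75 TPM in PEF against 130, 109 and 83.8 TPM in SEF. *PLN* had 79.4, 62.5 and 55.1 TPM in PEF against 11.8, 6.72 and 6.71 TPM in SEF. It had only 20 to 28 reads in a SEF library, and 192, 218 and 198 reads in PEF libraries 1, 2 and 3. In read counts scaled by TMM, PEF library 2 of *PLN* was the highest and library 1 was 1.04 times library 3. The PEF fall of *PLN* was thus present in the TPM but not in these counts. The remaining transporters, *fxyd6l*, *slc29a1a*, *slco2b1* and *SLC27A3*, had ratios of 1.53 to 2.47 in PEF and 1.46 to 2.04 in SEF.

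Among the members that are intracellular or have no role assigned, *krt4*, a simple epithelial keratin, was the most abundant. It had 1485, 517 and 331 TPM in PEF and 1030, 1018 and 698 TPM in SEF. Other epithelial keratins did not share its PEF order: *krt8* had 3431, 3847 and 3632 TPM in PEF, and *krt18a.1* had 2149, 2224 and 2081 TPM. In SEF *krt18a.1* had the order, with 694, 685 and 490 TPM. *krt8* had 1399, 1420 and 992 TPM in SEF, so library 3 was again the lowest. *glt8d2*, a glycosyltransferase-domain protein, had the largest ratio common to both lines, with 31.0, 17.7 and 10.3 TPM in PEF and 77.1, 35.7 and 32.0 TPM in SEF. *trim69*, an E3 ubiquitin ligase, had 71.7, 53.1 and 46.8 TPM in PEF against 9.06, 7.43 and 5.83 TPM in SEF. *pdcd4b*, an inhibitor of translation, and *eif4a2*, the translation initiation helicase, had PEF ratios of 2.25 and 1.84 and SEF ratios of 1.46 and 1.77. Ratios of 13 further members (*endouc*, *rap2aa*, *quo*, *ube2e3*, *rhpn2*, *ripor3*, *zcrb1*, *mid1*, *zgc:154093*, *zgc:172271*, *si:ch211-156l18.7*, *si:dkey-117m1.4* and *si:dkey-86e18.1*) were 1.44 to 2.21 in PEF and 1.46 to 3.25 in SEF. The entry *Metazoa_SRP*, a signal recognition particle RNA, rested on 1 to 8 reads per library, too few to order its libraries. Fewer than 100 reads in at least 1 library also underlay *NDUFAF8*, *sdhaf1*, *PLN* and *tnfsf10*, and the other 69 members had at least 100 reads in every library. The names *mid1*, *mrc1b*, *BDKRB2* and *Metazoa_SRP* each stand for more than 1 listed gene, and reads of near-identical copies could be split between them.

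Read by gene lists rather than by single genes, members took the largest shares of the proteoglycan and glycoprotein lists, cell type markers aside. They were 3 of 16 proteoglycan genes meeting the minimum, 4 of 28 matrix glycoproteins (*sparc*, *FBN1*, *cthrc1a* and *aebp1*), 2 of 21 matrix proteases and inhibitors and 1 of 28 genes of collagen folding, secretion and cross-linking. Over these 4 lists, 10 of 93 genes (10.8%) were members, beside 1.01% of all genes. Library 1 exceeded library 3 in both lines for 45 of the 93 (48.4%), beside 29.96% of all genes. Members are counted in both shares, and the 10 members among the 93 exceed by construction. The lists were chosen with earlier results of these data known, so the counts are a description. Of 8 fibroblast markers meeting the minimum, 3 were members (*dcn*, *prrx1a* and *prrx1b*), and of 3 epithelial markers 1 was (*krt4*).

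The median log2 ratio of library 1 to library 3 was 0.61 in PEF and 0.16 in SEF for the glycoproteins, and 0.70 in PEF and 0.14 in SEF for the proteoglycans, members included. It was 0.21 in PEF and 0.20 in SEF for the matrix proteases and inhibitors, and 0.24 in PEF and 0.071 in SEF for collagen folding, secretion and cross-linking. Over all genes it was 0.047 in PEF and 0.045 in SEF. Library 1 exceeded library 3 for 23 of 28 glycoproteins and 12 of 16 proteoglycans in PEF, and for 16 and 9 of them in SEF. Among the 21 proteases and inhibitors it did so for 15 in PEF and 13 in SEF.

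The signaling lists that held any member had 1 to 3 each, again beside 1.01% of all genes. TGF-β and BMP signaling had 3 of 38 (7.89%; *ccn1*, *ccn2b* and *twsg1a*), guidance molecules 2 of 29 (6.90%; *sema3e* and *ephb4b*), mesenchymal transcription factors 2 of 30 (6.67%; *prrx1a* and *prrx1b*), and Wnt and Hedgehog signaling 1 of 28 (3.57%; *gas1b*). Immediate early and stress kinase genes had 3 of 30, and their median log2 ratio was 0.93 in PEF but -0.16 in SEF. The respiratory chain gave 2 of 89, the assembly factors *NDUFAF8* and *sdhaf1*, and integrins, laminins and adhesion 1 of 42 (*boc*). The innate immune list gave 1 of 44 (*ccl25b*), the p53 response 1 of 19 (*btg2*) and the heat shock list 1 of 32 (*serpinh1b*). There was no member among 50 cell cycle genes, 90 cytosolic ribosomal protein genes, 93 genes of the endoplasmic reticulum and its stress response, 38 contractile genes, 49 lysosomal genes, 33 genes of glycolysis and hypoxia, 25 genes of IGF, FGF and PDGF signaling, 23 clock genes or 28 genes of cholesterol synthesis and uptake. At 1.01% of all genes, lists of these sizes would hold about 1 member or fewer. In PEF the median log2 ratio of the cell cycle list was -1.63 and that of the ribosomal list -0.39, while in SEF they were 0.27 and 0.033.

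**Figure D4:**
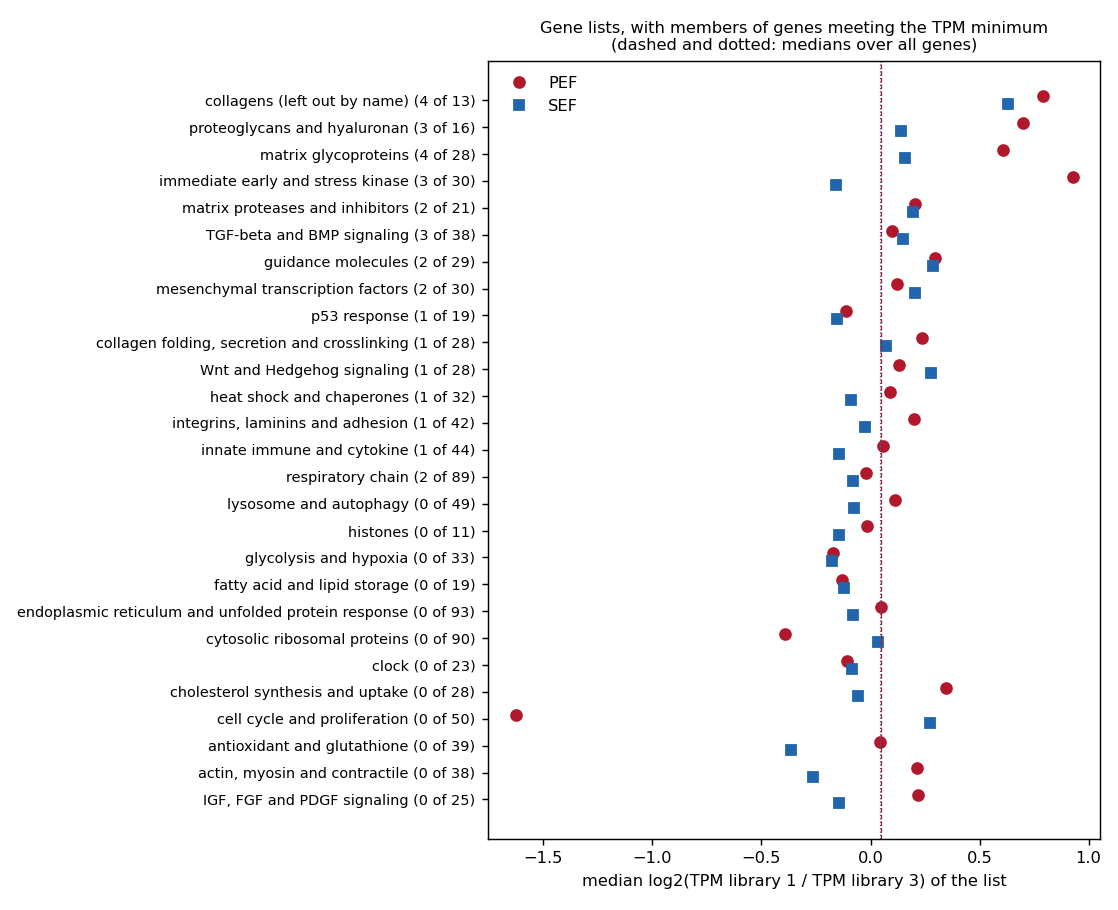
Median log2 of the TPM of library 1 over library 3 (x axis) for each gene list (y axis) in PEF (red circles) and SEF (blue squares), with members of genes meeting the minimum in parentheses; dashed and dotted lines are the medians over all genes, 0.047 and 0.045. Collagens lie right of these lines in both lines, proteoglycans and matrix glycoproteins mainly in PEF, and cell cycle genes lie far left in PEF but not in SEF.

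Collagens, which the rule left out by name, had the order at a higher share than each of the 4 matrix lists. Of 17 genes named col that met the minimum, 4 met the rest of the rule: *col1a1a*, *col1a1b*, *col1a2* and *col8a2*. The 17 include genes that are no collagens, such as *colgalt1* and *colec12*, and of the 13 collagens the 4 genes were 30.8%. *col1a1a* had 4867, 3421 and 2816 TPM in PEF and 2557, 1913 and 1559 TPM in SEF. *col1a2*, the partner chain of type I collagen, had 5314, 3988 and 3490 TPM in PEF and 5855, 4372 and 3783 TPM in SEF. The chains of type I collagen had ratios between 1.52 and 2.17 in PEF and between 1.55 and 1.96 in SEF. Of genes without a name, 14 of 915 (1.53%) met the rule.

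Apart from function, the members were more often abundant than other genes. A mean of at least 100 TPM over the 6 libraries was reached by 25 of 74 (33.8%), beside 14.2% of the 7329, and the median level was 37.9 TPM beside 22.6 TPM. Their median length relative to other genes, read from the relation of reads to TPM, was 0.90 beside 1. By symbol, 59 members could be placed on the RefSeq assembly AstMex3_surface. They lay on 21 of the 26 chromosome entries that held any of 6501 placed genes, with at most 9 on one. The share of all placed genes on that entry was not worked out, so whether 9 is many cannot be told. Only *serpinf1* and *slco2b1* were direct neighbors.

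The genes outside the set whose profile was most like the mean profile of the members (Pearson's r of log2(TPM + 1), centered within each line, over the 6 libraries) were *cdh11*, *meaf6*, *fbxl7*, *DTX3* and *polb*, with r between 0.993 and 0.9996. *cdh11*, the cadherin of mesenchymal cells, had 44.8, 36.5 and 34.01 TPM in PEF and 403, 364 and 323 TPM in SEF. It kept the order but not the ratio, at 1.32 in PEF and 1.25 in SEF. Just inside the threshold, by the smaller of both ratios, were *arhgap29a* (1.41), *si:dkey-238c7.16* (1.41) and *rabep1* (1.404). Just outside were *gmcl1* (1.396), *si:dkeyp-69b9.6* (1.39) and *ccdc80l1* (1.39).

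The rule did not choose members by the difference between PEF and SEF, beyond a minimum in each line. It did require a spread between the libraries of each line, so the calls and the overlap given here are not independent of the rule. Of 73 members tested, 24 were higher and 17 lower in PEF at an adjusted p under 0.05 (edgeR, quasi-likelihood test, Benjamini-Hochberg over 16670 genes). The 41 called members are 56.2% (32.9% higher and 23.3% lower), and the background among 7319 tested genes of the same minimum was 56.8%, with 32.7% higher and 24% lower (over all genes tested 63.5%, 30.4% and 33.1%). The members were thus called about as often as other genes. A difference of more than 2-fold was found for 31 of 73 (42.5%), beside 20.97% of genes of the same minimum and 42.03% of all genes tested. For 39 members (53.4%) every library of one line lay above every library of the other, beside 65.9% of those genes and 70.8% of all genes tested. The median log2 fold change was 0.20, and it was -0.10 without PEF library 1. Without that library 46 members were called, 40 of them shared with the 41.

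Higher in PEF were above all *ccn1*, with a log2 fold change of 4.36 ± 0.83 (SE, edgeR adjusted p = 0.0029), and *sparc* at 3.55 ± 0.28 (edgeR adjusted p = 4.6e-05). Mean levels were 1093 ± 1224 TPM in PEF against 54.4 ± 20.2 TPM in SEF for *ccn1*, and 8102 ± 3020 TPM in PEF against 723 ± 124 TPM in SEF for *sparc* (SD, n = 3 each). Most of the spread of *ccn1* in PEF lay in library 1. Without it the log2 fold change of *ccn1* was 2.95, below *sparc* (3.26) and *PLN* (3.11) in the same fit, and the call remained, as it did without any other single library. *PLN* (3.11 ± 0.24), *trim69* (3.03 ± 0.21) and *JAG1* (1.93 ± 0.35) followed, each higher in every PEF library than in any SEF library. *mxra8b*, *ier2a*, *BDKRB2* and *rarga* were also called higher, by 1.17 to 1.66 on the log2 scale, and so was *prelp* (1.43 ± 0.42, edgeR adjusted p = 0.019), although without SEF library 2 its adjusted p was 0.069.

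Lower in PEF were above all *HTRA3*, at -4.43 ± 0.33 (SE, edgeR adjusted p = 3.6e-05), *ccn2b* at -3.67 ± 0.58 (edgeR adjusted p = 0.0012), *prrx1b* at -3.39 ± 0.32 (edgeR adjusted p = 0.00010) and *abcc6b.2* at -3.204 ± 0.20 (edgeR adjusted p = 1.7e-05). *ccl25b* (-2.48 ± 0.45), *serpinf1* (-2.43 ± 0.31), *fxyd6l* (-2.08 ± 0.23), *tnfrsf11a* (-2.08 ± 0.21) and *zgc:154093* (-1.95 ± 0.35) followed. After them came *prrx1a* (-1.84 ± 0.36), *sema3e* (-1.56 ± 0.22) and *gas1b* (-1.41 ± 0.32). *HTRA3* averaged 92.4 ± 33.5 TPM in PEF against 2185 ± 657 TPM in SEF (SD, n = 3 each). The calls of all these genes held when any single library was left out. *glt8d2* was lower at -1.23 ± 0.44 (edgeR adjusted p = 0.043), a call lost without PEF library 2 or 3 or SEF library 1 or 2 (adjusted p 0.051 to 0.14).

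By role, assigned after values were seen and read beside 32.7% higher and 24% lower, 0 of 7 secreted signals were higher and 3 lower in PEF, and 2 of 6 transporters were higher and 4 lower. Of 10 matrix and matricellular proteins 4 were higher and 1 lower, and of 4 matrix processing proteins 0 were higher and 1 lower. Of 14 surface proteins 4 were higher and 3 lower, of 9 transcription regulators 4 and 2, and of the other 24 members 10 and 3. Members that missed the threshold included *dcn* (0.39 ± 0.21, edgeR adjusted p = 0.15), *mmp14a* (-0.089 ± 0.25, edgeR adjusted p = 0.77), *angptl2a* (0.019 ± 0.23, edgeR adjusted p = 0.95) and *boc* (-0.54 ± 0.37, edgeR adjusted p = 0.24). *serpinh1b*, *HS3ST1*, *tnfsf10* and *krt4* also missed it, with standard errors of 0.49 to 0.66, and in each of them PEF library 1 was at least 2.87 times PEF library 2. Without PEF library 1, *krt4* (-0.997), *tnfsf10* (-1.04) and *boc* (-0.95) were called lower in PEF.

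**Figure D5:**
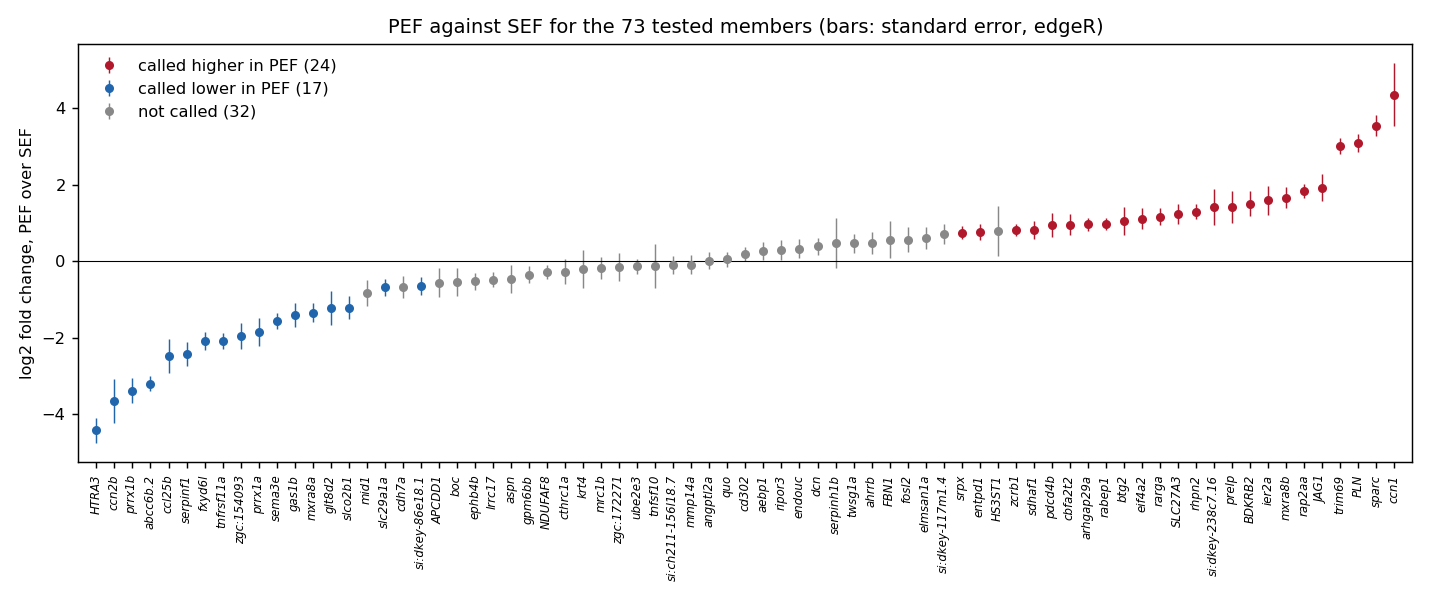
Log2 fold change of PEF over SEF (y axis; bars are standard errors, edgeR) for the 73 tested members in rising order (x axis), red where called higher in PEF (24), blue where called lower (17), grey where not called (32). The members span -4.43 (*HTRA3*) to 4.36 (*ccn1*), and the related genes *ccn1* and *ccn2b*, like *mxra8b* and *mxra8a*, lie on opposite sides of 0.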

How the data were processed

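Bulk RNA from 3 PEF and 3 SEF libraries (TruSeq stranded mRNA) was analysed, grouped by the cell line in the labels. The authors deposited a TPM table made with RSEM and a table of read counts per gene made with STAR 2.7.3a, neither of them filtered by gene. The settings, genome build, annotation and strand option for these libraries are not given in the sources used here. No column of either table was left unassigned. In the count table, 4 rows hold reads assigned to no gene (29.3% to 31.7% outside genes, 4.28% to 4.67% multimapping, 4.26% to 5.05% unmapped and 0.142% to 0.198% ambiguous) and were left out of library sizes.

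The rule for members was applied to the TPM as deposited. The members, the gene lists and the choice of tests were made with earlier results of these data known. Roles and the copies and related genes set beside members were chosen after values were seen. Genes named were the 12 members with the largest ratio (by the line with the smaller one), the 8 most abundant, the 5 largest rises and falls between the lines among called members whose libraries do not overlap, the 3 nearest to the threshold on either side, members of the lists, and the 5 genes most like the mean profile. Other names were added after their values were seen.

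PEF and SEF were compared with edgeR 4.0.16 in R 4.3.3 (TMM, filterByExpr, quasi-likelihood test, Benjamini-Hochberg adjustment over all genes tested, threshold 0.05), after the procedure was tested on simulated data. The simulation changed few genes, equally up and down, whereas 63.5% of genes tested were called here. It therefore does not measure the share of false calls in these data. Standard errors come from the F statistic. Alternatives were no low-count filter, upper-quartile normalization, DESeq2 1.42.0, limma 3.58.1 on log2(TPM + 1) or log2(TPM + 0.1), also with at least 1 TPM in 3 libraries, a replicate block, and leaving out each library. The rule was repeated with other minimums and ratios and on scaled counts. Symbols were matched to RefSeq AstMex3_surface for neighbors and chromosomes only. Between 33381563 and 42506026 reads per library limit the precision mainly for members with fewer than 100 reads, where counting error alone is large.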

Additional observations from a re-analysis of the deposited data

How the results depend on the processing

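The number of genes meeting the rule was 74. It was 130 with a minimum of 1 TPM and 54 with 10 TPM, 216 at a ratio of 1.2 and 10 at a ratio of 2. With alternatives chosen after seeing the data, it ranged from 13 to 111 when the libraries of 1 number were left out. On read counts scaled with TMM, 51 genes met the rule, 48 of them members, and 67 of 74 members kept their order. Those that lost it were *PLN*, *ccn2b*, *cd302*, *eif4a2*, *mxra8b*, *prrx1b* and *sdhaf1*. With DESeq2 size factors 57 genes met the rule, 53 of them members.

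Deviations of same-numbered libraries from their line mean correlated at -0.041, 0.073 and -0.13 over 16670 genes. Those of differently numbered libraries correlated at -0.15 to 0.15. With 3 libraries per line and no label for the number, these values cannot tell whether the numbers pair the samples. With a replicate block 52 members were called in place of 41, all 41 included, whereas calls over all 16670 genes fell from 10579 to 9735. The rule chose members by an order over the library numbers that both lines share, which the block takes up. The rise among members is therefore not a result apart from the rule.

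Leaving out a library gave 33 to 46 called members, and a median log2 fold change between -0.10, without PEF library 1, and its highest value of 0.37, without SEF library 1. DESeq2 called 46, and limma on log2(TPM + 1) called 35. Of the 41 called members, 8 lost the call in at least 1 of 13 alternatives: *glt8d2*, *prelp*, *btg2*, *cbfa2t2*, *pdcd4b*, *slc29a1a*, *si:dkey-238c7.16* and *si:dkey-86e18.1*. Genes with small differences changed sign. *angptl2a* was at -0.023 with DESeq2 and -0.029 with each limma fit, and -0.20 to 0.21 with a library left out. *serpinh1b* was at -0.029 with the block, at -0.070 with limma on log2(TPM + 1), filtered or not, and at -0.087 with a pseudocount of 0.1, and ranged over -0.72 to 0.92 with a library left out. With a library left out, *tnfsf10* ranged over -1.04 to 0.26, *krt4* over -0.997 to 0.17, *mmp14a* over -0.29 to 0.15 and *cthrc1a* over -0.50 to 0.16. The cause was not tested.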

Other observations

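The 35 genes with the opposite order, lowest in library 1 and highest in library 3 of both lines by the same ratio, included the following, picked after their values were seen. *sqstm1*, an autophagy receptor, had 464, 671 and 827 TPM in PEF and 524, 782 and 1004 TPM in SEF. *prdx1*, a peroxiredoxin, had 244, 245 and 360 TPM in PEF and 143, 329 and 391 TPM in SEF, and *gpx4b*, which reduces lipid peroxides, had 310, 363 and 477 TPM in PEF and 320, 552 and 618 TPM in SEF. These genes had overlapping levels in the lines. *gldc*, of the glycine cleavage system, had 80.3, 252 and 286 TPM in PEF and 276, 305 and 503 TPM in SEF. *cthl* had 25.7, 39.2 and 61.6 TPM in PEF against 88.9, 225 and 314 TPM in SEF. Of 39 genes in the antioxidant and glutathione list that met the minimum, 4 had this order, beside 35 of 7329 genes in all, and none had that of the members, and the median log2 ratio of library 1 to library 3 was 0.041 in PEF and -0.37 in SEF.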
